A study of Mus musculus with 12 samples.

Results

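Manganese and insulin were compared directly in primary mouse hepatocytes exposed to the same fasting mimics, over 3 libraries with manganese and 3 with insulin, 6 of the 12 libraries of the series. The members were taken by their treatment labels, and the comparison ran over 11544 genes. The cells came from a wild-type C57/Bl6J mouse by collagenase digestion, and the labels do not say whether the 3 replicates of a group were separate animals or separate wells, so the p-values measure only the spread between these libraries, which may be technical. All groups were plated with serum and then kept serum-free for 16 h overnight. The insulin group (labelled FDI) had 100 nM insulin by its sample labels (the shared protocol names 1 or 100 nM) for 1 h before 10 µM forskolin and 1 µM dexamethasone were added for 5 h. The manganese group (FDMn) had 6 µM manganese chloride during the 16 h overnight, no insulin, and the same forskolin and dexamethasone for 5 h. The labels do not say whether manganese stayed in the medium during those 5 h. The group FD had forskolin and dexamethasone alone, and the Mock group had none of the agents, with 3 libraries each. The agent and the length of exposure differed together, so an effect of manganese or insulin cannot be told apart from that of 16 h against 1 h before the mimics.

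Forskolin activates adenylyl cyclase and raises cAMP, as glucagon does, and dexamethasone activates the glucocorticoid receptor, so that together they switch on the hepatic fasting genes through CREB, the coactivator PGC-1α and the receptor itself. Insulin acts against this programme: through PI3K and AKT it keeps FOXO1 out of the nucleus, which lowers Igfbp1 and the glucose output enzymes, and through mTORC1 and the ERK cascade it promotes growth, translation and lipid synthesis. Manganese is a trace metal that hepatocytes import with SLC39A14 and export to bile with SLC30A10, and it is a cofactor of arginase, of the mitochondrial superoxide dismutase and of glutamine synthetase.

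Values are TPM, transcript abundances per length scaled to sum to 1000000 in each library, so the sequencing depth is unknown. Differences are manganese minus insulin on the log2(TPM + 1) scale with their standard error from limma, which understates the change of genes near 0, and adjusted p-values are by Benjamini and Hochberg over all 11544 genes, with a threshold of 0.05. Genes are named by the rule given with the methods. Members of counts of 5 or fewer are also named, and those outside the rule were chosen after their values were seen: Bcl6, Sesn1, Sesn3, Fos, Fosb, Egr1, Dusp4, Etv5, Pklr, Insig2, Mxi1, Ccnd2, Pcbp1, Slc40a1, Id3, Itih3, Atp6v0d1, Cpt2, Cyp2c70, Cyp2j5, Ccng1, Eda2r, Slc7a2, Fgl1, Igfals, Enho, Igfbp2, Vldlr, Trib3, Vcl and Bcl2l11. Where the 6 values of a gene past the threshold are printed below, the insulin and manganese libraries did not overlap.

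Alb, the albumin transcript of hepatocytes, stood at 22527 to 23228 TPM with insulin and 27024 to 27728 TPM with manganese, with no overlap and a difference of 0.25 (adjusted p = 0.111). Of 13 hepatocyte markers 4 were higher with manganese (Fgb, Cps1, Ttr at 0.22 and Apoa1 at 0.19) and 0 lower, and their summed TPM was 41929 ± 197 with insulin and 48243 ± 329 with manganese (SD, n = 3). Alb held the largest part of that sum. Cyp2e1 leaned the other way, with overlap, at 244 to 273 TPM with insulin and 225 to 247 TPM with manganese. When any 1 of the 6 libraries was left out, the 4 became 2 or 3, and Apoa1 lost its call each time. The number was 2 without manganese library 3 or insulin library 2. Endothelial markers were present at low levels: Pecam1 stood at 5.49 to 9.40 TPM, Cdh5 at 4.50 to 7.79 TPM and Lyve1 at 3.70 to 8.403 TPM in the 6 libraries, while Kdr and Vwf were under 1 TPM. Of 7 measured endothelial markers of 10, 1 was higher with manganese, Cdh5 (0.38, adjusted p = 0.0388), which lost its call without any 1 of manganese libraries 1, 2 and 3 and insulin libraries 1 and 3. The summed TPM of the endothelial list was 23.8 to 29.4 with insulin and 31.0 to 34.1 with manganese. Its members did not share 1 direction. Stab1 stood at 2.70 to 5.66 TPM with insulin and 6.04 to 6.45 TPM with manganese. Stab2 leaned the other way, with overlap, at 2.29 to 4.35 TPM with insulin and 1.92 to 2.94 TPM with manganese. Several defining markers of other cells were near 0. Clec4f, Adgre1, Vsig4 and Timd4 of Kupffer cells were under 1 TPM in each of the 6 libraries. Of 9 lymphocyte markers 0 passed the filter on low values, and Krt19, Krt7 and Epcam of cholangiocytes reached at most 1.11 TPM. Of 11 stellate cell and fibroblast markers 8 were under the filter, and 0 of the 3 measured ones passed the threshold. Dcn stood at 1.98 to 2.36 TPM with insulin and 2.29 to 3.35 TPM with manganese. Sparc stood at 3.04 to 3.88 TPM with insulin and 3.93 to 4.23 TPM with manganese, without overlap. In a principal component analysis of the 6 libraries the first component held 47.4% of the variance and separated the groups. On the second, with 15.2%, manganese library 1 lay at 18.6 and the other manganese libraries at -11.0 and -8.65. In these cultures of bulk RNA, fewer cells of a type and less RNA per cell cannot be told apart.

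Between the groups, 656 genes were higher and 1375 were lower with manganese, 5.68% and 11.9% of the genes tested and 17.6% together. Those shares are the background for every count of list members in this report. The difference reached 2-fold for 109 of the higher and 138 of the lower genes. For 40.5% of all genes the 3 libraries of one group did not overlap those of the other, which is the background for every statement on overlap. Higher genes made up 32.3% of the calls. That split depended on the scaling, with 791 higher and 1061 lower genes (42.7% higher) after median-of-ratios scaling and 854 and 909 (48.4% higher) after quantile normalization. The median difference over all genes was -0.04, with quartiles at -0.20 and 0.14.

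**Figure D1:**
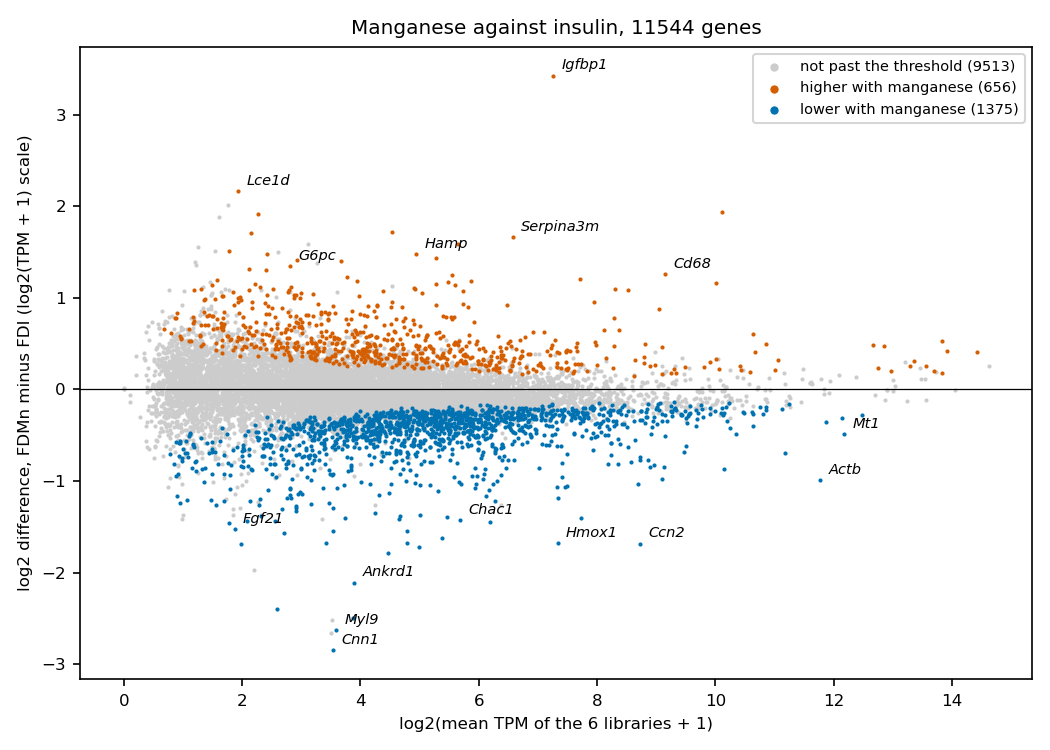
Each point is 1 of 11544 genes, with the mean TPM of the 6 libraries on a log2(TPM + 1) axis and the log2 difference, manganese (FDMn) minus insulin (FDI), on the vertical axis; orange and blue mark the 656 higher and 1375 lower genes and grey the rest. Igfbp1 stands alone at the top with a difference of 3.42, and Cnn1 is the lowest called gene at -2.85.

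The largest difference of all was that of Igfbp1 (insulin-like growth factor binding protein 1, chromosome 11, GRCm38), a secreted binding protein whose gene insulin represses through FOXO1. The gene's levels were 21.7, 24.9 and 28.9 TPM in insulin libraries 1 to 3 and 274, 287 and 273 TPM in manganese libraries 1 to 3. Every manganese library was thus far above every insulin library, with a log2 difference of 3.42 ± 0.12 and an adjusted p of 2.14e-08, and the ratio of the means was 11.04. The level with forskolin and dexamethasone alone was 282 ± 35.5 TPM and that of the Mock group 26.8 ± 3.61 TPM (SD, n = 3). Against FD the manganese group differed by -0.01 (95% interval -0.27 to 0.24, adjusted p = 0.959) and the insulin group by -3.44 (adjusted p = 2.04e-08). Both of these reference comparisons use the same FD libraries, and over all genes they called 15.1% (manganese) and 14.5% (insulin) of the genes tested.

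Both main regulated enzymes of glucose output were also higher with manganese. G6pc, the glucose-6-phosphatase that releases free glucose, stood at 3.08, 2.49 and 3.31 TPM in the insulin libraries and at 10.1, 8.46 and 8.58 TPM in the manganese libraries, a difference of 1.35 ± 0.14 (adjusted p = 7.22e-05). Both groups lay below the FD level of 30.8 ± 4.08 TPM. Pck1, the cytosolic phosphoenolpyruvate carboxykinase that commits oxaloacetate to glucose, was at 120.1, 123 and 138 TPM with insulin and 177, 200.1 and 179 TPM with manganese (0.54 ± 0.10, adjusted p = 0.00384), against 337 ± 37.1 TPM in FD. The order was therefore insulin, manganese, FD for both genes, and each step was past the threshold: against FD, manganese differed by -1.65 for G6pc (adjusted p = 2.08e-05) and by -0.86 for Pck1 (adjusted p = 0.000255). The call of Pck1 against insulin was lost with a pseudocount of 0.1.

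Other genes of glucose production went the other way or did not pass the test. Of 17 measured genes on that list 2 were higher (G6pc and Pck1) and 4 lower, with a median difference of 0.04. Together that was 35.3% of the list, against 17.6% of all genes. The 4 lower ones were the aminotransferases Got1 (663 ± 10.4 to 467 ± 38.1 TPM, difference -0.51) and Gpt2 (-0.29), pyruvate carboxylase Pcx (-0.27) and Ppargc1a, the gene of PGC-1α, at 16.7, 19.3 and 25.2 TPM with insulin and 13.3, 15.7 and 14.4 TPM with manganese (-0.45 ± 0.14, adjusted p = 0.0492). Ppargc1a lay just inside the threshold and lost its call in 14 of 17 alternatives, and Pcx in 10 of 17. Both were lost under both scalings, where 2 members were lower, as without manganese library 3 or insulin library 2 or 3, and 5 members were higher under quantile normalization. The tyrosine aminotransferase gene Tat, a standard readout of glucocorticoids, was at 326, 341 and 369 TPM with insulin and 345, 390.3 and 386 TPM with manganese. These values overlapped, the difference was 0.11 (95% interval -0.13 to 0.35, adjusted p = 0.533), and both groups lay under the 757 ± 106 TPM of FD (adjusted p 0.00011 for manganese and 3.78e-05 for insulin).

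**Figure D2:**
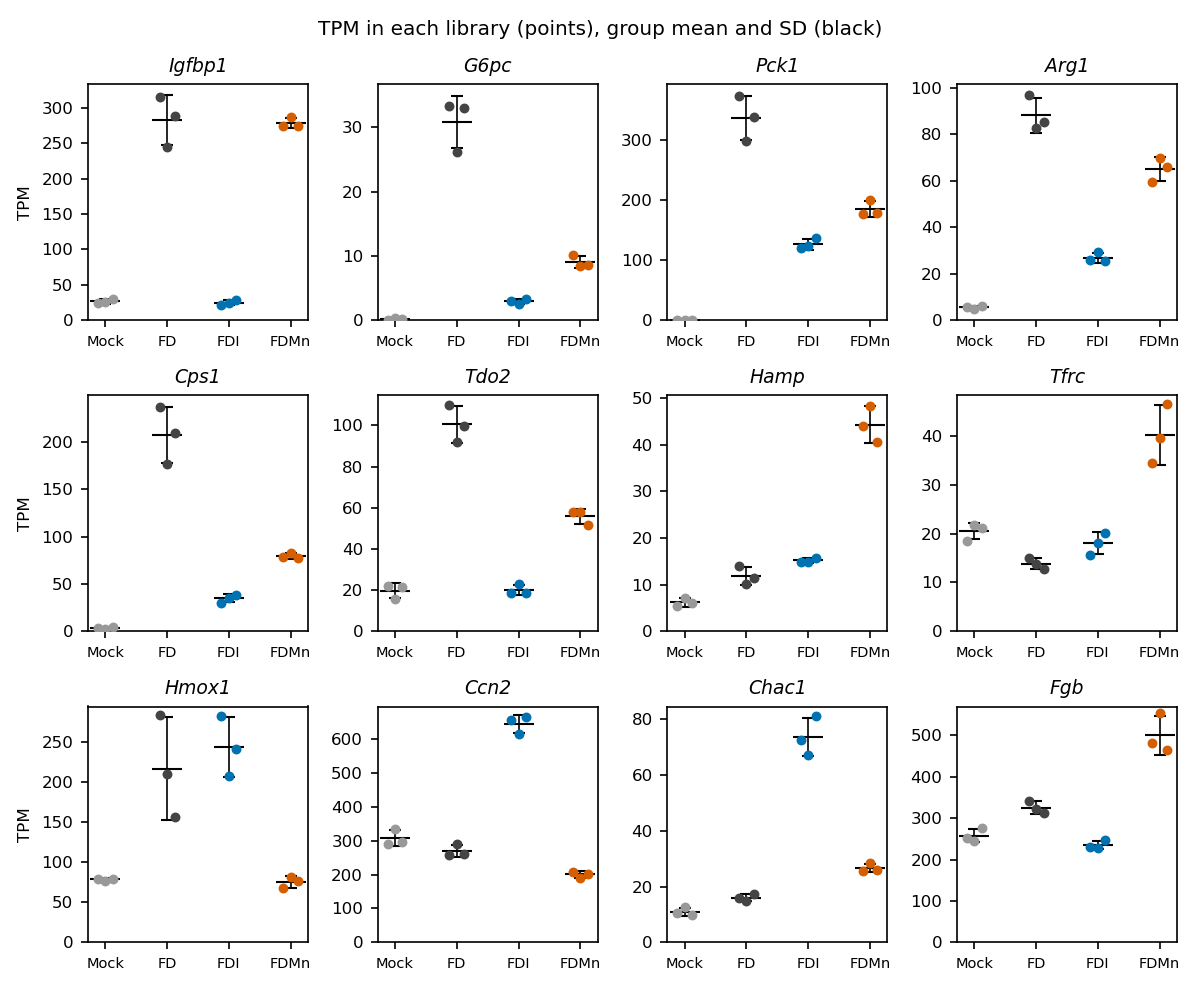
TPM of 12 genes in each of the 12 libraries (points, 3 per group), with the group mean and SD in black and every axis starting at 0. For Igfbp1 the manganese libraries (273 to 287 TPM) sit with FD and the insulin libraries (21.7 to 28.9 TPM) with Mock, while for Hamp and Tfrc the manganese group is the highest of the 4 groups.

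Of 22 measured genes known as FOXO targets, 5 were higher and 3 lower with manganese (median 0.20), 36.4% of the list against 17.6% of all genes. The higher ones were Igfbp1, the cyclin G2 gene Ccng2, the thioredoxin-interacting protein gene Txnip (1.06 ± 0.0912 to 1.88 ± 0.359 TPM, 0.48), the repressor gene Bcl6 (0.32) and Sesn1, a sestrin (0.35). Ccng2, a growth-inhibiting cyclin, stood at 7.72, 8.59 and 8.81 TPM with insulin and 25.1, 16.9 and 19.7 TPM with manganese (1.18 ± 0.12, adjusted p = 5.11e-05), and at 30.8 ± 2.16 TPM in FD. The lower ones were Irs2 (15.01 ± 1.63 to 10.4 ± 0.3199 TPM, difference -0.49, adjusted p = 0.0103), which couples the insulin receptor to PI3K, the stress gene Gadd45a (114 ± 12.8 to 76.7 ± 6.52 TPM, -0.57) and the sestrin gene Sesn3 (-0.38). So the members did not share 1 direction. Txnip lost its call without any 1 of manganese libraries 2 and 3 and insulin libraries 1, 2 and 3. The count of 5 was 3 without manganese library 1, 2 without manganese library 2 or 3 or insulin library 1 or 2, and 8 under quantile normalization.

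The promoter windows of 3 higher genes are shown because FOXO factors are known to bind a short AT-rich element. Igfbp1 and Ccng2 are of the FOXO list and G6pc is of the glucose production list. RefSeq windows of 300 bases, 250 before and 50 after the start (GRCm38.p6), were at hand for 8817 of the 11544 genes. The letters CAAAACA were searched on both strands, and capitals mark the match.
Igfbp1 (chr11:7197537-7197836, plus strand): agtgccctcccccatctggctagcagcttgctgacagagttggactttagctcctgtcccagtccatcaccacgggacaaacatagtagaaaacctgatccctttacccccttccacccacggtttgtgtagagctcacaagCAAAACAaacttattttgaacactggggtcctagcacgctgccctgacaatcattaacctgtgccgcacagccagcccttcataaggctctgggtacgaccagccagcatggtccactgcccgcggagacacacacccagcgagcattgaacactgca
Ccng2 (chr5:93267323-93267622, plus strand): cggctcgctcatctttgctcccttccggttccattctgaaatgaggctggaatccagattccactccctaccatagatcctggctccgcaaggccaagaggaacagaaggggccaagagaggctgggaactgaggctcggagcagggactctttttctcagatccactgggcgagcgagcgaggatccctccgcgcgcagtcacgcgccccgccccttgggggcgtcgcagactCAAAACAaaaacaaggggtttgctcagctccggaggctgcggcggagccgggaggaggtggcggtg
G6pc (chr11:101367466-101367765, plus strand): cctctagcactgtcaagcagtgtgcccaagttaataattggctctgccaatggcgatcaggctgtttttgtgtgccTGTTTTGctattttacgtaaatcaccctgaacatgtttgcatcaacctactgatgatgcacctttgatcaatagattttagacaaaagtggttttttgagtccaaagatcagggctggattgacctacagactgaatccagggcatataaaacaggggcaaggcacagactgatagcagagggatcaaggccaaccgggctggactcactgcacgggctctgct
In G6pc the match is on the opposite strand. The letters were found in 3 of 17 genes of the FOXO list with a window (17.6%) and in 5.42% of all 8817 genes. On the glucose production list G6pc was the only match, 1 of 14 genes with a window (7.14%). The third FOXO-list gene with a match was Irs2, which was lower with manganese, so a match did not go with 1 direction. The other FOXO element searched, GTAAACA, was found in 3 of the 17 (Sesn1, Txnip and Bcl2l11), in 0 of the 14 and in 3.32% of all genes. The FOXO list was made of known targets, so its share above that of all genes is not a result of these data. A match in this window is a description of the letters, not a binding site.

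Genes of insulin and PI3K signalling showed 1 higher and 6 lower members of 29 measured (median -0.11), 24.1% of the list against 17.6% of all genes. The higher one was the serum- and glucocorticoid-regulated kinase Sgk1, at 111, 126 and 142 TPM with insulin and 279, 296 and 301 TPM with manganese (1.21 ± 0.10, adjusted p = 1.57e-05), against 351 ± 21.6 TPM in FD. Lower with manganese were Pik3r1, the regulatory subunit of PI3K (24.8 ± 1.81 to 14.1 ± 1.57 TPM, -0.78), and the receptor adaptors Grb14 (-0.45) and Grb10 (-0.73). Srebf1, the master regulator of lipid synthesis, was at 17.3, 23.4 and 20.05 and 30.1, 18.5 and 20.1 TPM, with overlapping libraries and an interval of -0.35 to 0.64 (adjusted p = 0.714).

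Nitrogen disposal and tryptophan breakdown held some of the larger rises. Arg1, the manganese-dependent arginase of the urea cycle, was at 26.02, 29.2 and 25.4 TPM with insulin and 59.5, 69.97 and 65.9 TPM with manganese (1.24 ± 0.10, adjusted p = 7.59e-06). Cps1, carbamoyl phosphate synthetase, the entry step of that cycle, was at 30.4, 35.2 and 38.7 and 78.1, 83.1 and 77.9 TPM (1.18 ± 0.13, adjusted p = 8.59e-05). Tdo2, tryptophan dioxygenase, was at 18.6, 22.96 and 18.6 and 57.8, 57.97 and 51.6 TPM (1.44 ± 0.13, adjusted p = 1.68e-05). For all 3 genes FD was higher still, at 88.2 ± 7.58, 207 ± 29.9 and 100.5 ± 8.95 TPM. They were also the only members of the 32 measured urea cycle and amino acid breakdown genes to be higher, against 8 lower (median -0.10). Lower with manganese were Kynu, kynureninase (16.97 ± 1.12 to 9.81 ± 1.59 TPM, -0.74), and Prodh, proline dehydrogenase (34.9 ± 4.17 to 24.5 ± 1.07 TPM, -0.49). Fitted on the 6 libraries alone, 5 members were higher. Glul, the manganese-dependent glutamine synthetase, was at 19.2 ± 0.734 TPM with insulin and 14.8 ± 2.03 TPM with manganese (adjusted p = 0.0641, interval -0.64 to -0.09). Both lay under the 42.8 ± 5.14 TPM of FD, by -1.48 with manganese and -1.11 with insulin (adjusted p 1.96e-05 and 0.000127). Its difference passed the threshold in the fit on the 6 libraries alone and without manganese library 2.

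The lowest called genes with manganese were contractile genes and known targets of serum response factor (SRF) and YAP, which respond to actin state and growth signals. Of 25 measured members of a list of such genes 19 were lower and 0 higher, with a median difference of -0.99 against -0.04 over all genes. Between 18 and 20 were lower in every alternative run. The count stands against 11.9% of all genes being lower, and the list was drawn up with these results known. Cnn1, the actin-binding calponin 1, was at 22.9, 17.3 and 17.8 TPM with insulin and 1.26, 2.13 and 2.12 TPM with manganese (-2.85 ± 0.19, adjusted p = 3.25e-06). Myl9, a myosin light chain, was at 25.3, 15.7 and 18.3 and 3.08, 2.18 and 1.804 TPM (-2.62 ± 0.19, adjusted p = 3.85e-06). The 2 genes differed by 10.5 and 8.39 times in their mean TPM, and in both the lowest insulin library was several times above the highest manganese library.

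Skeletal and cardiac actin were the next lowest. Acta1 was at 23.7 ± 3.55 TPM with insulin and 3.496 ± 1.32 TPM with manganese (-2.50, adjusted p = 8.93e-06), and Actc1 at 9.08 ± 0.814 and 0.932 ± 0.294 TPM (-2.39), although Actc1 is not on the list. Tagln, transgelin, was at 45.2, 40.97 and 36.7 TPM and 12.2, 11.9 and 12.1 TPM (-1.68, adjusted p = 2.98e-07). The abundant cytoplasmic actin Actb, often used as a reference gene, was at 5108, 4104 and 4712 TPM with insulin and 2445, 1926 and 2702 TPM with manganese (-0.99, adjusted p = 0.00016), the largest difference in TPM among lower genes. Reads of the actin genes are alike in sequence, so the split between Acta1, Actc1, Actb and Acta2 is uncertain. With manganese they lay below FD as well: the difference from FD was -2.17 for Cnn1, -2.22 for Myl9 and -1.30 for Tagln, with adjusted p of 2.47e-05, 1.98e-05 and 3.89e-06. Insulin lay above FD for Cnn1 (0.67, adjusted p = 0.0357) and Tagln (0.38, 0.00978), while Myl9 differed by 0.40 (adjusted p = 0.186).

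YAP targets were lower too. Ccn2, connective tissue growth factor, was at 655, 614 and 664 TPM with insulin and 209, 190.3 and 202 TPM with manganese (-1.68 ± 0.07, adjusted p = 5.92e-08). Its FD level was 269.5 ± 17.2 TPM, so that insulin stood above it (1.26) and manganese below it (-0.43, adjusted p = 0.00131). Ankrd1, a stretch-responsive nuclear protein, was at 23.7, 22.1 and 23.8 and 3.81, 4.68 and 5.46 TPM (-2.11 ± 0.10, adjusted p = 2.98e-07), with FD between them at 9.85 ± 0.637 TPM. Ccn1, a matricellular relative of Ccn2, was at 216 ± 7.5999 and 103 ± 8.38 TPM (-1.07). The LIM-domain protein gene Fhl2, which is outside the list, showed another layout: 34.5, 29.7 and 35.4 TPM with insulin and 9.22, 8.94 and 8.56 TPM with manganese (-1.78 ± 0.12, adjusted p = 3.25e-06), with 7.47 ± 1.04 TPM in FD. Against FD, insulin was higher by 2.02 while manganese differed by 0.23 (95% interval -0.03 to 0.49, adjusted p = 0.221). Smooth muscle markers moved with the list: of 8, 4 were measured and 3 were lower (Tagln, Cnn1 and Acta2, all on the contractile list too), and their summed TPM was 61.3 to 76.0 with insulin and 17.4 to 18.8 with manganese. The defining markers Myh11, Actg2 and Des were at 0 or under 1 TPM in all 6 libraries.

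Serum response factor is known to bind the CArG box, and the windows of 2 of the lowest genes are shown with that match in capitals (both strands searched).
Myl9 (chr2:156775214-156775513, plus strand): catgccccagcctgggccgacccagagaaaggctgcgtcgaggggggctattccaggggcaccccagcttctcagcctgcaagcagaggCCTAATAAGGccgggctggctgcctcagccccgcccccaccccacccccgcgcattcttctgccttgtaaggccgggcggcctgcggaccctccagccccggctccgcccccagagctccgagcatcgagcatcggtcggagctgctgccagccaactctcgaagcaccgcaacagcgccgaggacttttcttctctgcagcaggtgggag
Acta1 (chr8:123894726-123895025, minus strand): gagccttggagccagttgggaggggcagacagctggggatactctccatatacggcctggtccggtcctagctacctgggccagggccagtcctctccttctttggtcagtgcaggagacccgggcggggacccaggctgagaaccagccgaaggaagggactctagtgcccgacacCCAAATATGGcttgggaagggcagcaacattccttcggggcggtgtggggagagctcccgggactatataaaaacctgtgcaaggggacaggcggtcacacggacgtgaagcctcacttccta
A CArG box was found in 6 of 21 genes of the contractile list with a window (28.6%) and in 1.57% of all 8817 genes. Of the 6, 5 were lower with manganese and Vcl, the vinculin gene, did not pass the threshold. The list includes known targets of serum response factor, so a share above that of all genes is not a result of these data. These letters say nothing of whether the factor was bound in these cells.

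**Figure D3:**
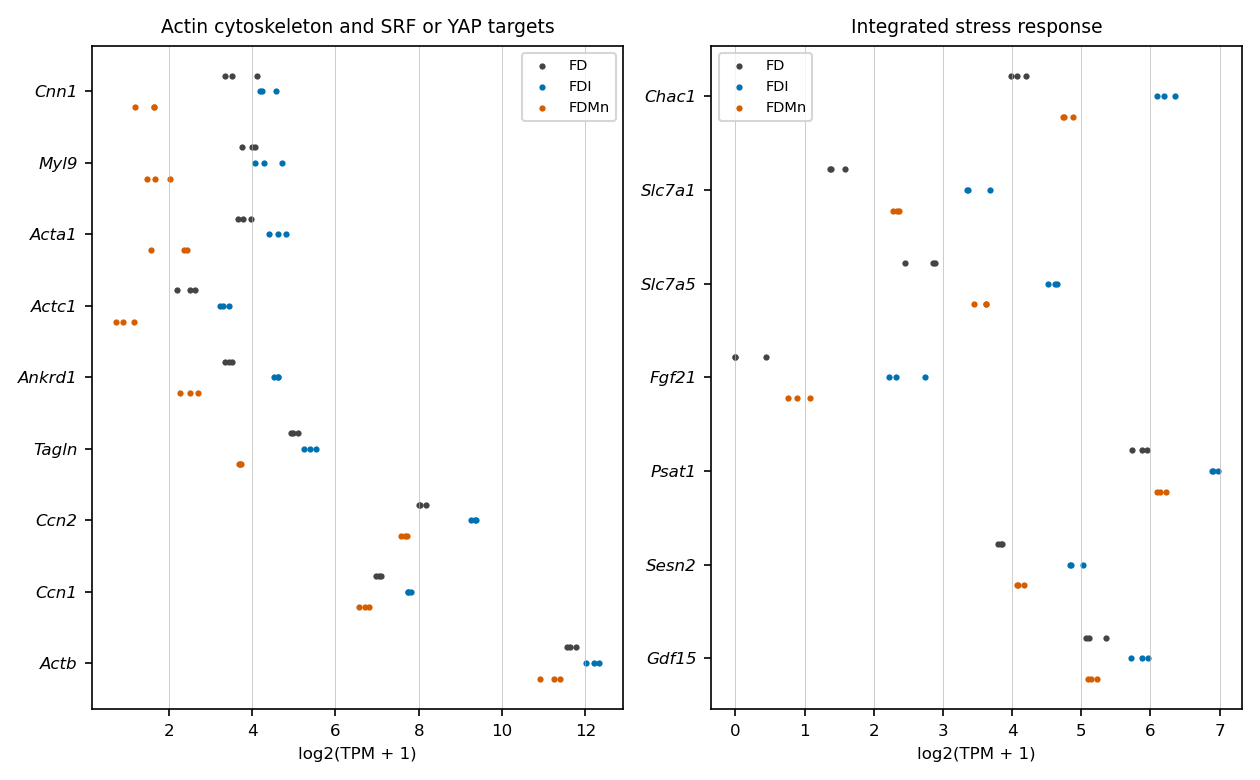
TPM on a log2(TPM + 1) axis in each library of FD (dark grey), insulin (FDI, blue) and manganese (FDMn, orange), 3 points per group, for 8 genes of the contractile list and Actc1 (left) and 7 of the integrated stress response (right). On the left the manganese libraries are the lowest of the 3 groups in each gene, and on the right the insulin libraries are the highest, with manganese near or between FD and insulin.

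Genes of the integrated stress response, which ATF4 drives under amino acid shortage or when mTORC1 is active, were lower with manganese in 20 of 33 measured members and higher in 0 (median -0.41). The number lower ranged from 17 to 22 over the alternatives, and in the fit on the 6 libraries alone 2 members were higher. Chac1, a glutathione-degrading enzyme and sharp ATF4 readout, was at 72.5, 67.4 and 81.1 TPM with insulin and 25.7, 28.5 and 25.996 TPM with manganese (-1.43 ± 0.10, adjusted p = 3.85e-06). Fgf21, the secreted fasting hormone, was at 4.002, 3.67 and 5.68 and 1.11, 0.695 and 0.844 TPM (-1.52 ± 0.20, adjusted p = 0.000266). Added over the list, TPM came to 2706 ± 29.7 in FD, 4142 ± 81.3 with insulin and 3429 ± 79.8 with manganese, so the manganese libraries lay between the other two groups.

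Amino acid supply genes of the same programme showed that layout singly. Psat1, of serine synthesis, was at 118, 125 and 118 TPM with insulin and 74.05, 67.4 and 69.2 TPM with manganese (-0.77, adjusted p = 1.63e-05), and at 57.1 ± 4.33 TPM in FD. The cationic amino acid carrier Slc7a1 was at 10.1 ± 1.52 and 4.02 ± 0.176 TPM (-1.14) and the leucine carrier Slc7a5 at 23.1 ± 1.12 and 10.8 ± 0.7796 TPM (-1.03), with 1.73 ± 0.224 and 5.71 ± 1.08 TPM in FD. Sesn2, a leucine sensor of the mTORC1 pathway, was at 28.98 ± 2.19 and 16.3 ± 0.6003 TPM (-0.79). Against FD all 4 genes were higher with manganese too, by 0.30, 0.88, 0.83 and 0.28 in that order, with adjusted p of 0.0116, 0.000571, 0.00115 and 0.0359. Of 20 cytosolic aminoacyl-tRNA synthetases, which charge tRNAs and include ATF4 targets, 10 were lower and 0 higher (median -0.22). Eprs, for glutamate and proline, had the smallest adjusted p of them, with 122, 129 and 129 TPM against 82.4, 86.5 and 82.4 TPM (-0.59, adjusted p = 2.67e-05), and the others included Wars (-0.61), Yars (-0.49), Hars (-0.41) and Gars (-0.33).

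An element of ATF4 and its partners, TGATGNAA, was searched on both strands of the same windows, and capitals mark it in the 2 genes named first above.
Chac1 (chr2:119350992-119351291, plus strand): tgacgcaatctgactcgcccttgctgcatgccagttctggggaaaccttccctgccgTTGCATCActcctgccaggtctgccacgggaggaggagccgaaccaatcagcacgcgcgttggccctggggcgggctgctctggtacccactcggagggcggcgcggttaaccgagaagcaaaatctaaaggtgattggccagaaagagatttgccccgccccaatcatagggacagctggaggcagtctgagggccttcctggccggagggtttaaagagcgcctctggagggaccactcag
Fgf21 (chr7:45615441-45615740, minus strand): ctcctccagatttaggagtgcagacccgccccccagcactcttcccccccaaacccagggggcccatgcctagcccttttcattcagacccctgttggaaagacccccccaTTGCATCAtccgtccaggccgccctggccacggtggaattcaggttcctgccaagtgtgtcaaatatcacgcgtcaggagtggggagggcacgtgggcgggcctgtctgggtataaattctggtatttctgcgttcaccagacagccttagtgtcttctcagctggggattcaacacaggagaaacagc
In both the match lies on the opposite strand. The element was found in 9 of 28 genes of the stress response list with a window (32.1%), in 5 of 12 aminoacyl-tRNA synthetases (41.7%) and in 2.76% of all 8817 genes. Both lists include known ATF4 targets, so a share above that of all genes is not a result of these data. Of the 9, Chac1, Fgf21, Vldlr and Trib3 were lower with manganese and the other 5 did not pass the threshold. Of the full stress response list, 20 of 33 measured members were lower.

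In ribosome biogenesis and Myc, an arm of cell growth, 16 of 30 members were lower and 0 higher (median -0.27). Nop56, of the box C/D snoRNPs, was at 190.1, 191 and 193 TPM with insulin and 127, 124 and 124 TPM with manganese (-0.61 ± 0.04, adjusted p = 3.85e-06), and Myc at 164, 149.8 and 168 and 110.2, 101 and 106 TPM (-0.60, adjusted p = 7.82e-05). FD was at 106 ± 1.08 TPM for Nop56 and 103 ± 1.87 TPM for Myc. Fewer members were lower under other choices: 9 under quantile normalization, 10 without the mitochondrially encoded genes, and 10 without manganese library 3 or insulin library 2. Replication genes gave 6 lower of 22, among them the helicase subunits Mcm2, Mcm3, Mcm4, Mcm5 and Mcm6, with differences from -0.96 (Mcm5, 6.83 ± 0.269 to 3.02 ± 0.03797 TPM) to -0.40 (Mcm6, at 18.8 ± 1.05 TPM with insulin). The sixth was the cyclin gene Ccnd2 (-0.63). The 6 made up 27.3% of the replication list, against 11.9% of all genes being lower.

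The HIF list, genes that hypoxia and mTORC1 are known to induce, had 10 lower and 1 higher, Mxi1 (0.40), of 22 (median -0.25). Adrenomedullin, Adm, was at 104, 90.9 and 124 TPM with insulin and 34.6, 41.3 and 38.9 TPM with manganese (-1.44 ± 0.15, adjusted p = 5.59e-05). Vegfa was at 375 ± 13.1 and 228 ± 1.04 TPM (-0.71). Single genes of glucose entry and its first steps were also lower: the transporter Slc2a1 was at 233, 205 and 233 and 117, 113 and 116 TPM (-0.95 ± 0.07, adjusted p = 3.85e-06), hexokinase Hk2 at 11.6 ± 0.788 and 4.28 ± 0.5497 TPM (-1.25), and Pfkfb3, which makes the activator of phosphofructokinase, at 68.6 ± 10.2 and 33.1 ± 4.27 TPM (-1.03). FD lay at 119 ± 5.23, 4.91 ± 0.397 and 36.7 ± 3.96 TPM, and manganese differed from it by -0.05, -0.17 and -0.15 (adjusted p 0.707, 0.36 and 0.638). Of the 32 genes of glycolysis and glycogen 8 were lower and 1, Pklr, was higher, 28.1% of the list against 17.6% of all genes. The other 23 did not pass the threshold, and the list's median was -0.02, so the list as a whole was not shifted. The higher counts moved with the scaling: 2 and 3 genes of the HIF and the glycolysis list were higher after median-of-ratios scaling, 4 and 7 under quantile normalization, and 3 and 4 without the mitochondrially encoded genes. Without manganese library 2 or 3 or insulin library 2 or 3, 0 glycolysis genes were higher.

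Immediate-early and cAMP-responsive genes were split. Of 27 measured genes of the ERK list 11 were lower and 5 higher (median -0.18), and of 20 cAMP and CREB targets 10 were lower and 3 higher (median -0.35). Atf3, a stress and cAMP factor on both lists, was at 106, 102 and 114 TPM with insulin and 41.9, 55.9 and 40.2 TPM with manganese (-1.22 ± 0.17, adjusted p = 0.000398), and FD was lower than manganese at 27.4 ± 4.88 TPM (adjusted p = 0.012). The orphan nuclear receptors Nr4a1 (14.9, 14.9 and 16.3 and 3.75, 3.87 and 4.73 TPM, -1.68, adjusted p = 2.64e-06) and Nr4a2 (9.64 ± 2.11 and 3.796 ± 0.463 TPM, -1.13) were lower, as was Ppp1r3c, a glycogen-targeting subunit of protein phosphatase 1 (8.88 ± 0.684 and 3.34 ± 0.501 TPM, -1.19). The 5 higher genes of the ERK list were Fos (4.13 ± 0.518 to 9.85 ± 2.8996 TPM), Fosb, Egr1, Dusp4 and Etv5. The 3 higher cAMP targets were Pck1, Crebl2 and Fosb. Thus Fos and Fosb were higher while Myc, Atf3 and Klf6 (181 ± 15.3 to 129 ± 6.22 TPM, -0.49) were lower. Without manganese library 1 or 2 or insulin library 2, 3 of the ERK list were higher.

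Glucocorticoid targets were mixed too, with 6 higher and 8 lower of 25 (median -0.05). Errfi1, an inhibitor of the EGF receptor, was at 824, 873 and 901 TPM with insulin and 537, 539 and 547 TPM with manganese (-0.68 ± 0.05, adjusted p = 3.85e-06), and its FD level of 726 ± 11.9 TPM lay between. Lpin1, a phosphatidate phosphatase of fasting, was at 13.1 ± 0.867 and 23.4 ± 2.8999 TPM (0.79, adjusted p = 0.00144) and at 33.7 ± 6.01 TPM in FD.

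Metal genes did not move as a block. Metallothioneins bind zinc and copper and are induced by glucocorticoids. Mt1 was at 5625, 4922 and 5712 TPM with insulin and 3773, 3781 and 4010.4 TPM with manganese (-0.49 ± 0.06, adjusted p = 0.000266), and Mt2 at 2819, 2582 and 3191 and 1693, 1829 and 1788 TPM (-0.69 ± 0.10, adjusted p = 0.000572). Both stayed among the most abundant transcripts of these cells in either group. Their layouts against FD differed. Mt1, at 5122 ± 203 TPM in FD, was lower with manganese (-0.41, adjusted p = 0.00113) and differed by 0.08 with insulin (adjusted p = 0.45). Mt2, at 1875 ± 211 TPM in FD, differed by -0.08 with manganese (adjusted p = 0.65) and was higher with insulin (0.61, adjusted p = 0.00151). Of 23 measured zinc and manganese transport genes and metallothioneins, 2 were higher and 3 lower (median -0.07). That is 21.7% of the list, near the 17.6% of all genes. The zinc importers Slc39a4 (36.2, 32.7 and 38.4 and 69.2, 68.3 and 69.3 TPM, 0.93 ± 0.08, adjusted p = 2.02e-05) and Slc39a10 (1.59 ± 0.0805 and 4.004 ± 0.199 TPM, 0.95) were higher, and the zinc exporter Slc30a1 (16.8 ± 1.79 and 8.76 ± 2.23 TPM, -0.89) was lower.

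The known manganese carriers gave no call between manganese and insulin. Slc39a14, the main hepatic importer, was at 170.0, 191 and 228 TPM with insulin and 232, 249.6 and 222 TPM with manganese. The libraries lay so that 2 of the 3 manganese values exceeded all insulin values, the difference was 0.26 (95% interval 0.06 to 0.47) and the adjusted p was 0.0768. It passed the threshold under median-of-ratios scaling, under quantile normalization and without insulin library 3. Against FD (189 ± 7.14 TPM), Slc39a14 was higher with manganese by 0.31 (95% interval 0.10 to 0.51), just inside the threshold (adjusted p = 0.047). With insulin it differed from FD by 0.04 (adjusted p = 0.8). Slc39a8, a second importer, was at 6.03 ± 0.476 and 6.32 ± 0.287 TPM (interval -0.16 to 0.27). The exporter Slc30a10 was under the filter at 0.249 ± 0.0258 and 0.293 ± 0.124 TPM. Among 14 measured manganese-binding enzymes 3 were higher (Arg1, Pck1 and Idh1) and 3 lower (Xpnpep1, B4galt1 and Pcx). Sod2, the mitochondrial manganese superoxide dismutase, was at 184, 170.4 and 168 TPM with insulin and 180.0, 182 and 181 TPM with manganese, a difference of 0.05 (interval -0.05 to 0.16, adjusted p = 0.51). In the fit on the 6 libraries alone 6 of the 14 enzymes were lower. Idh1 lost its call without manganese library 2 or 3 or insulin library 1 or 3.

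Iron genes held a pair of large rises. Hamp, the hepcidin hormone that blocks iron export from cells, was at 14.9, 14.9 and 15.8 TPM with insulin and 44.04, 48.4 and 40.5 TPM with manganese (1.48 ± 0.12, adjusted p = 1.13e-05). Tfrc, the transferrin receptor whose messenger iron shortage stabilizes, was at 15.7, 18.1 and 20.2 and 34.4, 39.5 and 46.5 TPM (1.11 ± 0.12, adjusted p = 7.82e-05). The manganese group was also above FD, by 1.83 and 1.46 (adjusted p 4.74e-06 and 1.51e-05). Insulin differed from FD by 0.35 (interval 0.08 to 0.61) and 0.35 (interval 0.09 to 0.61), with adjusted p of 0.078 and 0.071. Of 25 measured iron genes 4 were higher, the others being ceruloplasmin Cp (1400.0 ± 89.8 to 1855 ± 73.3 TPM, 0.41) and the BMP target Id2 (0.35), and 5 were lower. Those included Smad7 (-0.78) and the ferritin light chain Ftl1 (4974 ± 205 to 4024 ± 137 TPM, -0.31, adjusted p = 0.0311) and also Id3, Slc40a1, which encodes the iron exporter ferroportin, and Pcbp1, an iron chaperone. Of these BMP-responsive genes Hamp and Id2 were thus higher and Smad7 and Id3 lower. The number lower was 1 without manganese library 3 or insulin library 3 and 2 without manganese library 1 or 2 or insulin library 1. Ftl1 lost its call under both scalings and in 10 of 17 alternatives, and Smad7 without manganese library 3.

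Hmox1, heme oxygenase 1, which frees iron from heme, was lower with manganese. It was at 283, 208 and 242 TPM with insulin and 67.7, 82.2 and 76.8 TPM with manganese (-1.67 ± 0.17, adjusted p = 5.72e-05), while FD was at 217 ± 63.8 TPM and Mock at 78.9 ± 1.401 TPM. Manganese lay -1.47 from FD (adjusted p = 0.000184) and insulin 0.20 from it (interval -0.18 to 0.57). Hmox1 is a target of NRF2, the factor of the oxidative stress response, and of 30 NRF2 targets 13 were lower and 6 higher (median -0.20). The glutathione transferases Gstm3 (82.98, 84.9 and 79.3 and 37.7, 39.95 and 41.5 TPM, -1.04 ± 0.06, adjusted p = 1.49e-06) and Gstm2 (174 ± 14.2 and 114 ± 6.8998 TPM, -0.61) were lower, as were Osgin1 (637 ± 13.8 and 361 ± 20.5 TPM, -0.82) and the epoxide hydrolase Ephx1 (-0.41). The Gstm genes are near-identical copies whose reads may have been split between them. Not all NRF2 targets were lower: Abcc2, an export pump for conjugates, was higher (40.1 ± 6.002 to 56.96 ± 2.78 TPM, 0.51).

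Plasma proteins made by the liver are read here beside the hepatocyte markers, whose sum was also larger with manganese, and the part of that in the result was not tested. Those markers include plasma protein genes themselves, among them Alb and Fgb, so they are not a separate measure. Of 29 measured acute phase genes 14 were higher and 1, Itih3, was lower (median 0.21), against 5.68% of all genes being higher. The 3 fibrinogen chains moved together: Fgb was at 230.0, 228 and 248 TPM with insulin and 480.4, 553 and 465 TPM with manganese (1.08 ± 0.07, adjusted p = 3.25e-06), Fga at 166 ± 15.4 and 323 ± 44.6 TPM (0.95), and Fgg at 228 ± 26.01 and 394 ± 46.5 TPM (0.78). Cd14, the lipopolysaccharide coreceptor that hepatocytes also secrete, was at 58.3, 58.7 and 64.4 and 112, 116 and 119 TPM (0.92 ± 0.06, adjusted p = 3.59e-06). The protease inhibitor Serpina3m was at 34.6, 43.9 and 57.9 and 135, 164 and 131 TPM (1.66 ± 0.17, adjusted p = 5.11e-05), and its relative Serpina3c at 1.06 ± 0.467 and 6.63 ± 0.674 TPM (1.91). The Serpina3 genes are near-identical copies, so the values of the single genes are uncertain. Itih3 lost its call in several alternatives, among them each scaling and any one of manganese libraries 1 and 3 and insulin libraries 1, 2 and 3 left out.

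Clotting and complement factors, 33 genes, gave 10 higher and 0 lower (median 0.13), while the other 23 did not pass the threshold. The 10 were 30.3% of the list, against 5.68% of all genes being higher. Plasminogen, Plg, was at 206, 206 and 212 TPM with insulin and 284, 314 and 280.4 TPM with manganese (0.49 ± 0.06, adjusted p = 0.000294), and F11 at 21.2 ± 4.18 and 36.1 ± 1.37 TPM (0.75). The count was 5 without manganese library 2 or insulin library 2, 6 without insulin library 3 and 16 under quantile normalization. Interferon-responsive genes gave 9 higher and 1 lower of 38 (median 0.14), led by Iigp1 (5.896, 7.99 and 7.35 and 15.98, 24.7 and 14.1 TPM, 1.22 ± 0.17, adjusted p = 0.000387), in which manganese library 2 was the highest. The lower one was Oasl1 (-0.55), and the calls made up 26.3% of the list, against 17.6% of all genes. Without manganese library 1 or 2 the number higher was 4 and 3, and without insulin library 1 or 2 it was 2 and 5. The neutrophil-attracting chemokine Cxcl2 was at 2.11, 1.53 and 1.93 and 3.66, 7.42 and 5.37 TPM (1.15 ± 0.23, adjusted p = 0.0057). Of 18 measured chemokine and cytokine genes 3 were higher and 2 lower (median 0.06), 27.8% of the list against 17.6% of all genes. The other higher ones were Cxcl1 (0.62) and Cxcl10 (0.98). The lower ones were Csf1 (-0.45) and the more abundant Tnfrsf12a (502 ± 18.2 to 389 ± 11.9 TPM, -0.37), a receptor gene on that list. Csf1 lost its call in 10 of 17 alternatives and Cxcl10 in 5.

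**Figure D4:**
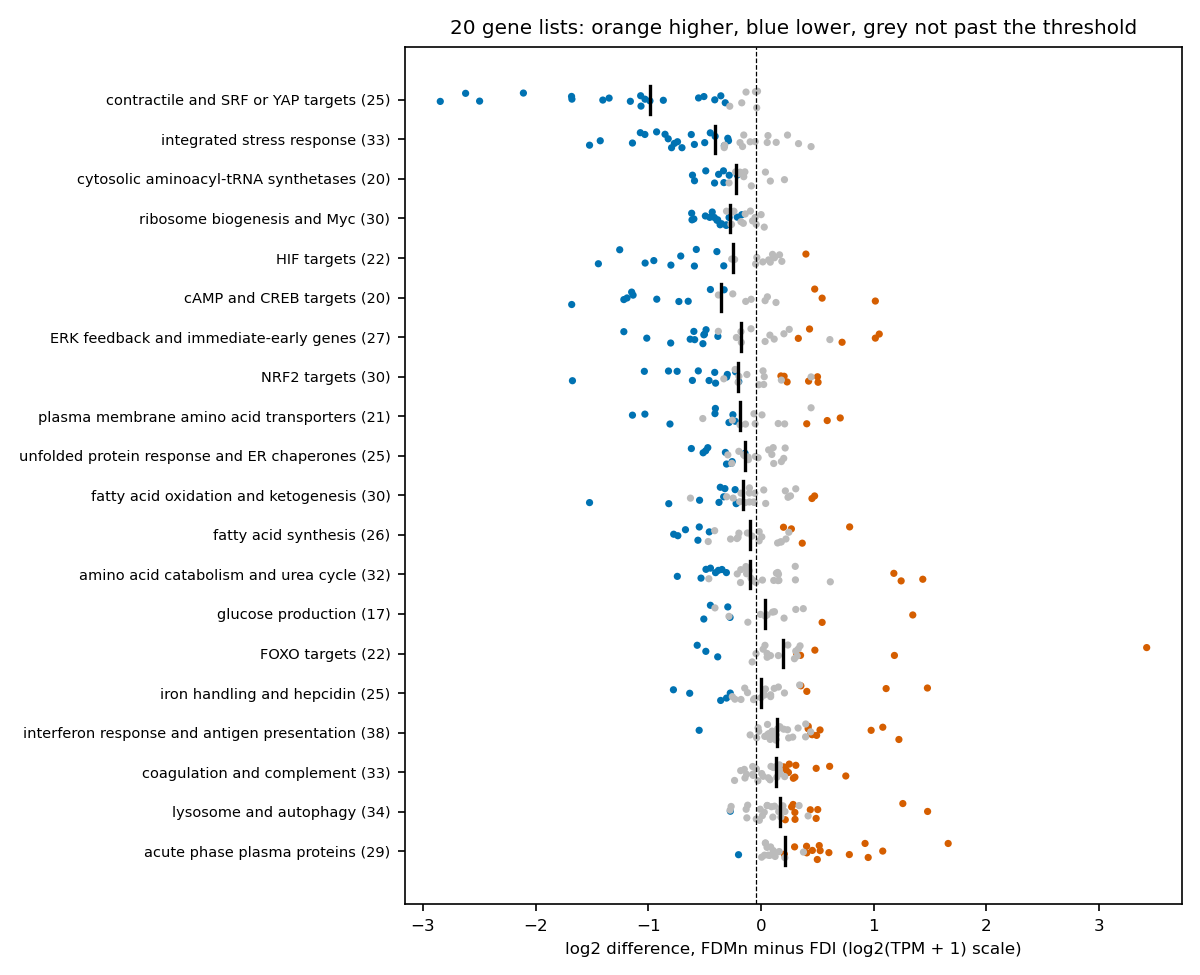
Each point is a measured gene of 1 of 20 lists (the number measured in brackets), placed by its log2 difference, manganese (FDMn) minus insulin (FDI), with the list's median as a black bar and the median of all 11544 genes, -0.04, as the dashed line. The contractile list lies farthest left with a median of -0.99, and the acute phase list farthest right with 0.21.

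Lysosome and autophagy genes gave 10 higher and 1 lower of 34 (median 0.17). The lower one, Atp6v0d1 of the proton pump (-0.27), lost its call without any 1 of manganese libraries 1, 2 and 3 and insulin libraries 2 and 3. Cd68, a lysosomal membrane glycoprotein used as a macrophage marker, was at 323, 299 and 376 TPM with insulin and 786, 756 and 841 TPM with manganese (1.26 ± 0.09, adjusted p = 3.25e-06). Of the other macrophage markers Lyz2 stood between 2.58 and 3.93 TPM in the 6 libraries, and C1qa, C1qb and Marco did not pass the threshold either. The other 7 of the 12 markers were under the filter. Summed over the list, TPM was 309 to 384 with insulin and 766 to 852 with manganese, nearly all of it Cd68. Ctsw, a cysteine cathepsin, was at 1.81 ± 0.178 and 6.87 ± 0.946 TPM (1.48, adjusted p = 0.000136), and Ctsd, the main aspartic cathepsin, at 455 ± 22.1 and 549.7 ± 8.69 TPM (0.27). Gabarapl1, an autophagosome protein and FOXO target, was at 128, 116 and 129 and 168, 178 and 177 TPM (0.49 ± 0.06, adjusted p = 0.000298), with 209 ± 9.86 TPM in FD. Spp1, osteopontin, was higher, from 611, 636 and 649.5 TPM to 1333, 1524 and 1397 TPM (1.16 ± 0.06, adjusted p = 3.44e-07). Spp1 also marks cholangiocytes, and the list's summed TPM was 774 to 819 with insulin and 1421 to 1614 with manganese. Of its other markers, Sox9 (40.6 ± 6.198 to 25.2 ± 1.16 TPM, -0.66) and Cldn4 (105 ± 11.1 to 51.7 ± 3.56 TPM, -1.001) were lower, and Cftr was at 0 in all 6 libraries. The part of such cells in the result was not tested.

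In lipid synthesis, 6 of 26 fatty acid genes were lower and 4 higher (median -0.10). Fasn, fatty acid synthase, was at 32.2, 29.2 and 28.5 TPM with insulin and 20.4, 16.6 and 18.5 TPM with manganese (-0.67 ± 0.14, adjusted p = 0.00749). The desaturase Fads2 was at 179, 175 and 177 and 118, 122 and 119 TPM (-0.56 ± 0.04, adjusted p = 8.81e-06) and the acyltransferase Gpam at 113 ± 12.9 and 65.5 ± 2.64 TPM (-0.77). The higher ones were Lpin1, Mlxipl (0.27), which encodes ChREBP, Pklr (0.20) and Insig2 (0.37). Their number was 2 without manganese library 2 or 3 or insulin library 3 and 1 without insulin library 2, and Mlxipl lost its call without manganese library 1 or insulin library 2.

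Cholesterol genes gave 7 lower and 2 higher of 26 (median -0.08). Pmvk, phosphomevalonate kinase, had the widest difference, 237, 238 and 199 TPM with insulin and 95.2, 110.3 and 90.4 TPM with manganese (-1.18 ± 0.09, adjusted p = 8.91e-06), while Fdps, which acts after it in the pathway, was higher (152 ± 11.3 to 205 ± 3.61 TPM, 0.44, adjusted p = 0.000363). Insig1, which holds SREBP in the endoplasmic reticulum, was the other higher gene (0.49). The number lower was 4 without manganese library 3 or insulin library 2 or 3, and 4 under quantile normalization.

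Droplet and oxidation genes were divided. The coat protein Plin2 was higher (256, 263 and 262 and 385, 344 and 359 TPM, 0.48, adjusted p = 0.00614), and the lipase inhibitor G0s2 was lower (14.7, 15.5 and 13.4 and 5.99, 5.56 and 5.202 TPM, -1.24, adjusted p = 0.000152), as were the droplet-bound Hilpda (-0.75) and Hsd17b13 (-0.58) and the monoglyceride lipase Mgll (3.72 ± 0.624 to 1.21 ± 0.107 TPM, -1.09). Among 30 genes of fatty acid oxidation and ketogenesis 10 were lower and 2, Plin2 and Cpt2 (0.45), higher (median -0.16). The lower ones included the pantetheinase Vnn1 (9.8999 ± 0.637 to 5.21 ± 0.784 TPM, -0.82) and the thiolase Acaa1b (-0.55). The 10 became 6 under either scaling, 5 without the mitochondrially encoded genes, 5 without manganese library 1 or insulin library 2, and 6 without manganese library 3. The 2 became 1 without manganese library 3 or insulin library 1 or 2.

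Of 27 secreted liver signals 5 were higher and 7 lower (median 0.05). Angptl8, the insulin-induced inhibitor of lipoprotein lipase, was at 71.6, 61.7 and 52.3 TPM with insulin and 19.7, 18.7 and 19.2 TPM with manganese (-1.62 ± 0.15, adjusted p = 2.4e-05). Its FD level was 20.8 ± 2.84 TPM, from which manganese differed by -0.10 (interval -0.42 to 0.22). Inhba, an activin subunit, was at 26.6, 29.04 and 33.2 and 13.8, 14.1 and 11.2 TPM (-1.12 ± 0.12, adjusted p = 6.07e-05), and the stress hormone Gdf15 at 58.1, 51.8 and 61.5 and 36.6, 34.2 and 33.4 TPM (-0.70, adjusted p = 0.000221). Nrg4, a neuregulin, was higher with manganese (22.8, 24.2 and 25.4 and 70.2, 73.2 and 80.7 TPM, 1.59 ± 0.25, adjusted p = 0.00101), and FD was at 56.7 ± 4.01 TPM, although Nrg4 is not on the list. Besides Igfbp1 the higher ones of the list were Fgl1 (0.23), Igfals (0.40), Enho (0.39) and Igfbp2 (0.32), with differences under those of the named lower ones. Their number was 2 without manganese library 1, 1 without manganese library 2 or insulin library 2 or 3, 3 without manganese library 3, and 10 under quantile normalization.

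Of 26 hepatocyte transcription factors 15.4% were called, against 17.6% of all genes. The 4 called ones were all higher: Cebpa (26.8, 24.4 and 25.8 and 35.5, 34.9 and 35.1 TPM, 0.44, adjusted p = 0.00144), Foxa2 (41.01 ± 4.29 and 57.6 ± 3.9003 TPM, 0.48), the xenobiotic receptor Nr1i2 (0.63) and Prox1 (0.45). Prox1 lost its call without any one of manganese libraries 1, 2 and 3 and insulin libraries 1 and 2. Among xenobiotic enzymes Cyp3a13 was higher (28.1, 31.3 and 29.8 and 52.6, 52.3 and 52.9 TPM, 0.80, adjusted p = 7.21e-06) and Cyp2a5 lower (373, 365 and 366 and 189, 232 and 206 TPM, -0.82, adjusted p = 6.26e-05), and of 25 genes of that list 4 were higher and 4 lower. The other higher ones were Cyp4v3 (0.51), Nr1i2 and Cyp2c70 (0.38), and the other lower ones Cyp1a2 (-0.50), Cyp2c39 (-1.24) and Cyp2j5 (-0.37). The calls made up 32% of the xenobiotic enzyme list, against 17.6% of all genes. Reads of the Cyp2c copies may have been split between them. The clock list had 5 lower of 18, or 27.8%, against 11.9% of all genes being lower. The nuclear clock repressor Per2 was among them (17.5, 17.2 and 17.8 and 9.21, 9.62 and 9.07 TPM, -0.84 ± 0.10, adjusted p = 0.000113), as were Nfil3 (-0.62, adjusted p = 6.27e-05) and Bhlhe40 (-0.61). The other 2, Per1 (-0.33) and Ciart (-0.94), lost their calls under both scalings, so that 3 were lower there, and likewise 3 without manganese library 2 or 3 or insulin library 1 or 3.

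Of the chaperones of the endoplasmic reticulum and other genes of the unfolded protein response, 9 of 25 were lower and 0 higher (median -0.14). Hspa5, the chaperone BiP, was at 554, 566 and 560.4 TPM with insulin and 390.4, 406 and 399.5 TPM with manganese (-0.49 ± 0.04, adjusted p = 1.3e-05), and calreticulin, Calr, at 893, 903 and 821 and 529.9, 620.4 and 556 TPM (-0.62, adjusted p = 0.000162). Under quantile normalization 4 were lower. Under either scaling and without the mitochondrially encoded genes 2 were higher, and 1 in the fit on the 6 libraries alone.

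Growth arrest genes were split. Of 22 genes of the p53, p21 and Gadd45 list 5 were higher and 9 lower (median -0.07). Btg1, an antiproliferative gene, was at 19.6, 17.1 and 16.01 TPM with insulin and 28.1, 29.04 and 26.2 TPM with manganese (0.64, adjusted p = 0.000344), and Trp53inp1, a p53-induced autophagy gene, at 76.2, 95.7 and 91.3 and 136, 127 and 129 TPM (0.58, adjusted p = 0.000375). The stress sensor Gadd45g was lower, at 96.7, 84.2 and 83.3 and 43.9, 49.3 and 45.1 TPM (-0.92, adjusted p = 4.51e-05), as was the polo-like kinase Plk2 (29.5 ± 1.43 to 16.8 ± 0.522 TPM, -0.78). The other higher genes were Sesn1, Ccng1 (0.22) and Eda2r (0.46). Their number was 2 without manganese library 1 or 2 or insulin library 1, and 3 without insulin library 3.

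Among 21 plasma membrane amino acid transporters 3 were higher and 8 lower (median -0.19). The higher ones were Slc16a10, an aromatic amino acid carrier, at 22.6, 21.4 and 23.6 TPM with insulin and 32.8, 37.3 and 33.3 TPM with manganese (0.59, adjusted p = 0.000317), Slc3a1 of cystine uptake (4.25 ± 0.188 to 7.55 ± 0.609 TPM, 0.70) and Slc7a2, a cationic carrier (0.41). The cationic carriers Slc7a1 and Slc7a2 thus differed in opposite directions. The lower ones included Slc38a2, a sodium-coupled neutral carrier (48.9 ± 4.81 to 36.6 ± 1.61 TPM, -0.40). The number lower was 4 without manganese library 3 or insulin library 3, and 5 without manganese library 1 or 2 and under quantile normalization.

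Bile acid and lipoprotein genes held some clear single differences. Fgfr4, the hepatic receptor for the gut hormone FGF15, was at 42.4, 44.05 and 39.7 TPM with insulin and 17.1, 20.6 and 22.4 TPM with manganese (-1.04 ± 0.13, adjusted p = 0.000255), with 31.1 ± 3.84 TPM in FD. The phospholipid pump Abcb4 (20.9 ± 1.34 to 15.3 ± 0.534 TPM, -0.42) and Baat, which conjugates bile acids (-0.49, call lost in 7 of 17 alternatives), were the other lower genes of 21, and Abcc2 was the higher one. These 4 made up 19.0% of the list, near the share over all genes. Of 22 apolipoprotein and assembly genes 6 were higher, among them Apoa5 (25.2, 28.7 and 35.2 and 47.2, 48.03 and 41.7 TPM, 0.61, adjusted p = 0.00647), an activator of lipoprotein lipase, and Apoa4 (387 ± 25.2 to 496 ± 13.8 TPM, 0.36). Apoc2, the lipase cofactor, was the lower one (141 ± 3.03 to 105 ± 7.12 TPM, -0.43, adjusted p = 0.00122). The calls made up 31.8% of that list, against 17.6% of all genes. The 6 higher genes became 3 without manganese library 1 or insulin library 2.

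Some of the largest differences fell outside these groups. Vcam1, a vascular and hepatic adhesion molecule, was at 7.004, 5.09 and 6.12 TPM with insulin and 17.3, 16.8 and 18.5 TPM with manganese (1.40 ± 0.11, adjusted p = 7.59e-06). The endothelial marker sum also differed between the groups without overlap, although Stab2 leaned lower with manganese. The part of the endothelial markers in this difference was not tested. FD was at 5.88 ± 0.206 TPM, from which manganese differed by 1.43 (adjusted p = 9.73e-06) and insulin by 0.03 (adjusted p = 0.881). Emp1, an epithelial membrane protein gene, had that layout against insulin and FD too, with 1.08, 1.096 and 1.09 and 5.19, 6.77 and 5.53 TPM (1.70 ± 0.24, adjusted p = 0.000504) and 1.21 ± 0.567 TPM in FD, and so did Lce1d, a late cornified envelope gene, with 0.397 ± 0.181 and 5.26 ± 0.725 TPM (2.17) and 0.121 ± 0.209 TPM in FD. The Mock group was at 13.9 ± 1.28 TPM for Vcam1, 8.32 ± 3.30 TPM for Emp1 and 0.805 ± 0.0952 TPM for Lce1d. Against Mock the 3 genes thus did not share a layout. Fam13a, in contrast, was at 3.21, 3.198 and 3.03 TPM with insulin, 10.3, 9.33 and 10.5 TPM with manganese (1.41 ± 0.15, adjusted p = 6.43e-05) and 8.45 ± 0.968 TPM in FD, with an insulin difference of -1.18 from FD (adjusted p = 0.000254) and a manganese difference of 0.23 (adjusted p = 0.335).

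On the lower side, Tsc22d1, a leucine zipper protein gene, was at 50.2, 44.7 and 47.7 TPM with insulin and 12.9, 13.4 and 14.8 TPM with manganese (-1.72 ± 0.10, adjusted p = 9.76e-07), with 17.2 ± 2.37 TPM in FD. The proapoptotic gene Pmaip1, known as Noxa, was at 4.52, 4.74 and 5.84 and 0.952, 0.836 and 0.821 TPM (-1.68 ± 0.18, adjusted p = 6.92e-05), with 1.76 ± 0.638 TPM in FD. Gpx1, the abundant glutathione peroxidase, was at 4598, 3977 and 4096 and 3278, 3126 and 3468 TPM (-0.36, adjusted p = 0.00326), and the cornified envelope gene Sprr1a at 6242 ± 394 and 5149 ± 253 TPM (-0.28), both among the 6 largest differences in TPM on the lower side.

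Transcripts encoded by mitochondrial DNA made up 12.3 ± 1.43% of TPM with insulin and 15.0 ± 0.43% with manganese (SD, n = 3), with 14.4 ± 1.10% in FD. Of the 13 genes 7 were higher, among them mt-Nd2 (10577, 13048 and 11900.1 and 17744, 16738 and 16760.3 TPM, 0.53, adjusted p = 0.000533) and mt-Cytb (0.47, adjusted p = 0.00179), which encode subunits of respiratory complexes I and III. Since TPM values share 1 total, a larger mitochondrial share leaves less for the other genes. Of 45 cytosolic ribosomal proteins 13 were lower (median -0.19), but 4 after either scaling and 6 when TPM was recomputed without the mitochondrially encoded genes, and 23 in the fit on the 6 libraries alone. Of the mitochondrial genes 3 were higher under quantile normalization, and 4 without manganese library 1 or 3 or insulin library 1. The count of ribosomal proteins lay between 3 and 7 without any 1 of manganese libraries 1, 2 and 3 and insulin libraries 1 and 2.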

How the data were processed

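RNA from 12 cultures of primary mouse hepatocytes was poly-A selected, per the labels' protocols. The authors deposited 1 table of TPM per gene (36144 symbols), whose values sum to 1000000 per library, so that depth is unknown. Per the submitters' processing notes, kallisto 0.44.0, GRCm38.p6 and DESeq2 were named, with no role. Annotation release and strand setting: not given in the sources used here.

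Here log2(TPM + 1) was fitted with limma 3.58.1 in R 4.3.3 over all 4 groups, on the 11544 genes that reached 1 TPM in 3 or more of the 12 libraries. Tests were two-sided, adjusted by Benjamini and Hochberg at a threshold of 0.05, and the code was tested on simulated data. Named genes were a panel of 21 (1 of them is not reported here), the 12 highest and the 12 lowest called genes (mean TPM of at least 5 in a group, no overlap, no predicted genes), the 6 largest differences in TPM each way, and the 5 smallest adjusted p of each list. The members and lists were chosen with earlier results of these data known. Alternatives changed the pseudocount, filter, scaling, samples fitted, intensity trend and replicate block, or left out 1 library in turn.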

Additional observations from a re-analysis of the deposited data

How the results depend on the processing

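Of 199 named genes past the threshold, 169 stayed past it under each of up to 17 alternatives, 30 were lost under at least 1, and 0 changed sign. The genes higher with manganese numbered 404 to 499 and those lower 921 to 991 when 1 library was left out in turn, against 656 and 1375. Under quantile normalization 909 genes were lower. Fitted on the 6 libraries alone, 806 were higher and 1660 lower. Against FD, leaving out 1 library gave 475 to 1007 higher and 540 to 1021 lower genes for manganese (834 and 912 with all) and 735 to 1440 higher and 321 to 680 lower for insulin (1172 and 502 with all). Srebf1, not past the threshold, turned in direction, ranging from -0.0590 (without manganese library 1) to 0.28 (without manganese library 2; 0.15 with all). The cause was not tested. The labels do not say whether same-numbered libraries of the 2 groups share more than a number. The correlations of their deviations were 0.014, 0.068 and 0.023, which cannot decide this with 3 libraries per group. With the replicate block 584 genes were higher and 1245 lower. TPM keeps no depth, so the sampling error of low genes is unknown, and 3 libraries per group limit the precision.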

Other observations

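Gm20594, a predicted gene on chromosome 6, was chosen here after its value was seen, since predicted genes were outside the naming rule. It was at 455 ± 45.9 TPM with insulin and 1744 ± 141 TPM with manganese (SD, n = 3), a log2 difference of 1.94 ± 0.08 and an adjusted p of 7.65e-08 by limma, with 526 ± 30.9 TPM in FD and 532 ± 26.3 TPM in the Mock group. This was the third highest difference of any called gene, after Igfbp1 and Lce1d.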
